A study of Mus musculus with 2 samples.

Results

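The genes described here encode 9 transcription factors of the myeloid lineage: the ETS factor PU.1 (Spi1), the C/EBP factors Cebpa, Cebpb, Cebpd and Cebpg, the large Maf factor Maf, the MiT factors Mitf and Tfec, and the Runt factor Runx1. They were taken by gene symbol from a given list, with no threshold on their levels, and are 9 of the 55536 mouse genes in the tables. Their mRNA was measured by sequencing polyadenylated RNA of macrophages, primary cells grown from the bone marrow of the mouse strain C57BL/6J. The only group holds 2 libraries, biological replicates 1 and 2, whose cells had 100 ng/ml of the stimulus for 120 minutes. The free-text label calls that stimulus lipid A, the part of bacterial lipopolysaccharide that Tlr4 senses, whereas the treatment and source fields call it lipoprotein A, a protein. Both libraries carry 1 donor record, and sex and age were not collected, so separate animals are not stated and the spread between the libraries may be technical. Unstimulated cells were not analysed here, so the values describe stimulated cells alone and show no response.

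Lineage factors bind DNA at the enhancers and promoters of genes that set a cell's identity. In macrophages PU.1 opens chromatin at many enhancers, with C/EBP factors bound beside it, and Runx1 acts earlier, in blood stem and progenitor cells, and upstream of Spi1. The C/EBP and Maf proteins pair through a leucine zipper, and MiT proteins through a helix-loop-helix and zipper. Among the C/EBP genes, Cebpa is known for granulocyte and monocyte progenitors, and Cebpb and Cebpd for the inflammatory response. The MiT factors are known for lysosome genes, osteoclasts and, in the case of Mitf, pigment cells.

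The gene tables held 33319563 estimated counts in replicate 1 and 50334059 in replicate 2. A count of 0 allows up to 3 counts, which at that depth were 0.0902 and 0.0597 CPM. CPM is a count rescaled by the library total, and this limit covers counting error alone. Over 12178 genes the coefficient of variation between the libraries was 21.5%, and their counts differed by more than sampling noise (chi-square of 121 per degree of freedom), so they were treated as separate libraries. Mitochondrial genes took 7.12% and 5.64% of the TPM (counts per unit of transcript length, rescaled to a fixed total) in replicates 1 and 2, and nuclear rRNA genes took 6.82% and 10.5%. All 10 macrophage markers reached 1 TPM in each library, as did 10285 of all 55536 mouse genes. These markers summed to 20443 and 26361 TPM, of which Lyz2 alone gave 13518 and 19283 TPM. The next highest of them, Cd68, was at 3236 and 2939 TPM. Libraries differed in genes listed as markers of other cells: 14 granulocyte markers summed to 577 TPM in replicate 1 and 110 TPM in replicate 2. The 10 erythroid and megakaryocyte markers summed to 937 and 240 TPM, of which the platelet chemokine gene Pf4 gave 916 and 236 TPM. The next highest of these 10, Ppbp, was at 13.9 and 1.55 TPM, and which cells held the Pf4 RNA was not tested. The level of 1 TPM was reached in each library by 6 of the 14 granulocyte markers and 3 of the 10 erythroid and megakaryocyte markers. It was also reached by 4 of 8 osteoclast markers, 3 of 8 B cell markers and 3 of 9 T cell markers. None of 9 mast cell and basophil markers, 6 melanocyte markers or 8 stromal markers reached it in each library.

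Each library held all 9 genes at 1 TPM or more, across a 76.5-fold range of mean level. Spi1 came highest, followed by Tfec, Maf, Mitf, Runx1, Cebpb, Cebpa, Cebpg and Cebpd. In this order every gene down to Cebpb stood above the next one in both libraries. Cebpa, Cebpg and Cebpd overlapped: Cebpd at 6.27 TPM in replicate 2 was above Cebpg (6.15 TPM) and Cebpa (5.96 TPM) in the same library, and below both in replicate 1. By the second quantification Cebpd in replicate 2, at 4.91 TPM, was above Cebpa (4.84 TPM) but below Cebpg (6.48 TPM). Among the 10285 genes at 1 TPM or more in both libraries Spi1 ranked 432 and Cebpd ranked 8140, so the genes spread from the top 4.20% to the top 79.1%. In bulk RNA, fewer cells that carry a transcript and less of it per cell cannot be told apart.

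**Figure D1:**
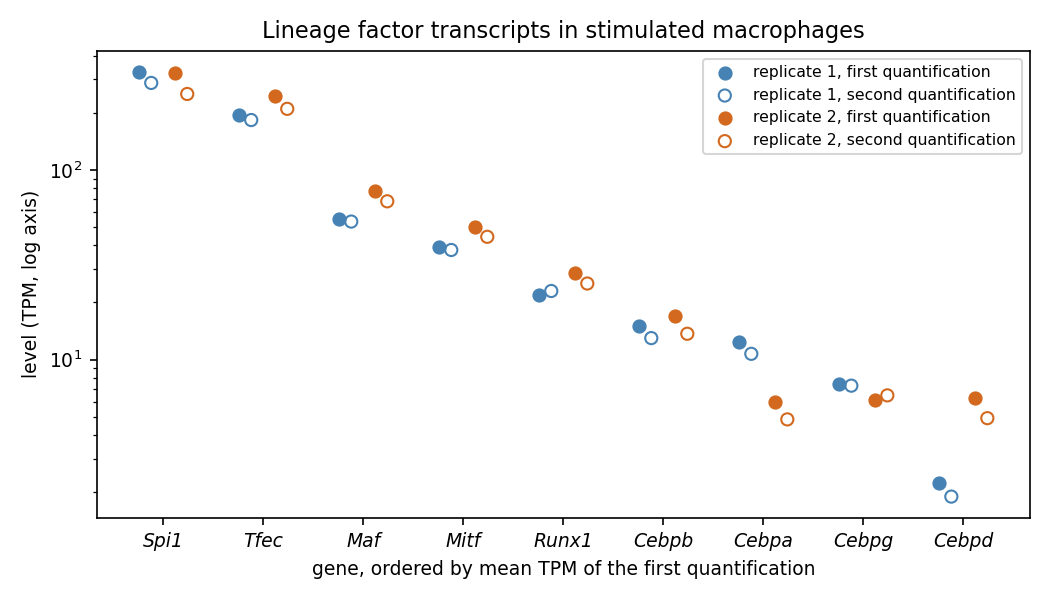
Level of each of the 9 factor genes in TPM on a log axis, in replicate 1 (blue, left) and replicate 2 (orange, right), by the first quantification (filled) and the second (open). Spi1 lies above 250 TPM under both, the 4 C/EBP genes lie lowest, and Cebpa and Cebpd are the genes whose libraries stand furthest apart.

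Spi1 encodes PU.1, an ETS factor without which macrophages do not form. Spi1 (ENSMUSG00000002111.8, mm10 chr2:91082390-91115756, plus strand) was at 328 TPM in replicate 1 and 322 TPM in replicate 2, or 325 ± 4.05 TPM (mean ± SD, n = 2), from 8478 and 12118 counts. By this quantification both libraries gave nearly the same level of Spi1. The second put it at 287 and 251 TPM, below the first in each library and with a wider gap between them. Its relatives were low: Spic, known for iron-recycling macrophages, was at 19.9 and 7.79 TPM, and Spib, known in B cells and plasmacytoid dendritic cells, at 1.15 and 0.24 TPM. Spi1 therefore held 94.0% and 97.6% of the TPM of the PU.1 family of 3 genes.

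The level of Spi1 in TPM rests in part on short annotated transcripts. Spi1-201, the 2034-base coding transcript, had 60.6% and 59.4% of the TPM of the gene in replicates 1 and 2 but 92.7% and 91.9% of its counts. Spi1-203 of 402 bases and Spi1-204 of 544 bases, both annotated with an incomplete end, together took 34.9% and 32.7% of the TPM from 6.00% and 5.79% of the counts. TPM divides counts by an effective length, 134 and 136 bases for Spi1-203 against 1751 and 1749 bases for Spi1-201. Spi1-201 alone stood at 199 and 192 TPM, against 189 and 239 TPM for the leading Tfec transcript. Between these 2 leading transcripts that of Spi1 was therefore the higher in replicate 1 and the lower in replicate 2 by the first quantification. By the second, Spi1-201 was the lower in both libraries, at 165 and 146 TPM against 175 and 203 TPM for Tfec-201. The transcripts that begin at the upstream of 2 annotated starts, 13706 bases before the start of Spi1-201, held 21.3% and 24.2% of the TPM and 5.19% and 6.11% of the counts. One of them, Spi1-202, is annotated as a processed transcript with no coding sequence and took 4.52% and 7.86% of the TPM.

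**Figure D2:**
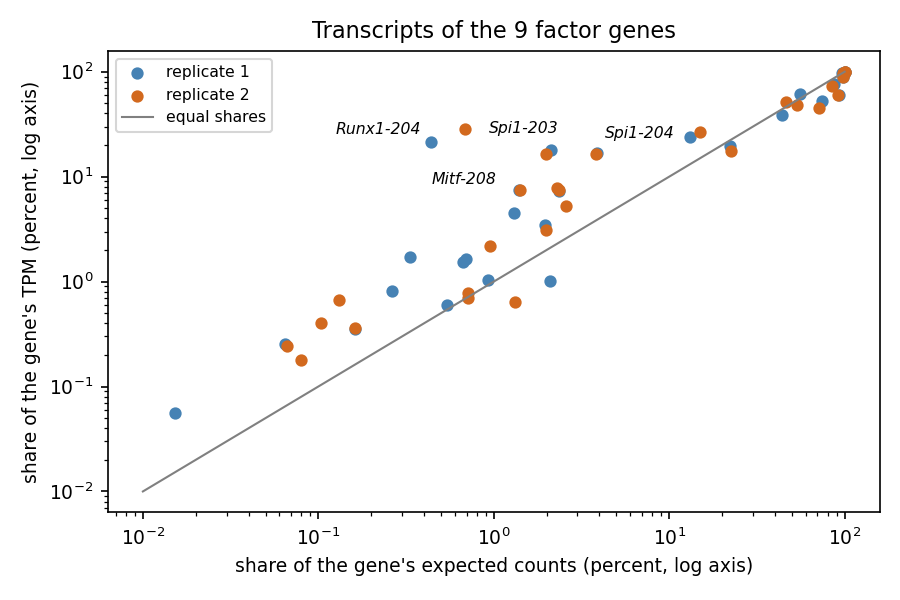
Share of a gene's TPM (vertical) against share of its expected counts (horizontal) for each annotated transcript of the 9 genes with any TPM, both in percent on log axes, with replicate 1 in blue and replicate 2 in orange. Points above the grey line of equal shares weigh more in TPM than in counts; Runx1-204, at 21.4% and 28.5% of TPM from 0.439% and 0.688% of counts, lies furthest above it.

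The 4 C/EBP genes were the least abundant of the 9, and summed to 37.1 TPM in replicate 1 and 35.3 TPM in replicate 2. Spi1 exceeded this sum 8.84-fold and 9.13-fold. Their proteins bind DNA through a basic region next to the leucine zipper, and the coding bases of that region show how alike the genes are. Each line gives 60 coding bases of the basic region of 3 of the genes from the GENCODE M21 transcripts on mm10, within 1 exon, with the 35 bases that are identical in all 3 in capitals: Cebpa at chr7:35120274-35120333 (plus), Cebpb at chr2:167689694-167689753 (plus) and Cebpg at chr7:35050585-35050644 (minus).
Cebpa: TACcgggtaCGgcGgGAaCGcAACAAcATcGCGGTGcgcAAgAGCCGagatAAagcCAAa
Cebpb: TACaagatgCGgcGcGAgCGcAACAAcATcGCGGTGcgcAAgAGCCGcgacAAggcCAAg
Cebpg: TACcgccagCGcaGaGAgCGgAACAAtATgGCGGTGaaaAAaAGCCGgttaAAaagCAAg
Cebpa and Cebpb shared 50 of the 60 bases. Cebpg, whose protein lacks the activation domains of the others and acts as their partner, shared 38 with each. Over whole leading transcripts the longest identical run was 29 bases between Cebpa and Cebpb, so only reads wholly inside that short run could fit either gene exactly. The labels give a size range of 250 to 400, which is not a read length, and how many reads fell inside that run was not tested.

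Cebpb (ENSMUSG00000056501.3, chr2:167688915-167690418, plus strand) is a gene with no intron and the highest of the 4. It was at 15.0 and 16.9 TPM in replicates 1 and 2, or 15.98 ± 1.35 TPM (SD, n = 2), from 414 and 686 counts. That put it at rank 4846, in the top 47.1%. The second quantification gave 13.0 and 13.7 TPM. Its transcript has a GC content of 67.2%, above 99.9% of the leading transcripts of 10280 genes, whose median was 50.02%. At its locus 312 of its 1504 exonic bases (20.7%) also lie in an exon of Tmem189 on the opposite strand, which was at 112 and 86.6 TPM. Whether reads were counted by strand is not given in the sources used here, so reads in those bases cannot be assigned to either gene with certainty. The part of GC content or of this overlap in the level of Cebpb was not tested.

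Cebpa (ENSMUSG00000034957.10, chr7:35119293-35121928, plus strand) differed between the libraries. It was at 12.4 TPM in replicate 1 and 5.96 TPM in replicate 2, or 9.18 ± 4.55 TPM (SD, n = 2), from 575 and 416 counts. The larger library thus had fewer counts of it. The spliced transcript Cebpa-202, which lacks a 475-base intron, had 61.3% and 51.8% of its TPM, against 51.6% and 40.4% by the second quantification. Of the counts of the gene Cebpa-202 had 55.9% and 46.4% by the first quantification and 46.1% and 35.3% by the second. Which of the 2 transcripts leads therefore depended, in each library, on the quantification and on whether TPM or counts were used. Both transcripts hold the bases printed above for the basic region, which were read as coding sequence from Cebpa-201 alone.

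Granulocyte genes ran the same way as Cebpa. Ngp, a granule protein gene and a C/EBP target, was at 67.5 and 3.21 TPM in replicates 1 and 2. The calprotectin genes S100a9 and S100a8 were at 266 and 41.2 TPM and at 167 and 20.5 TPM. Cebpe, the C/EBP gene of late granulocyte differentiation, had 8 counts and 1 count. The 6 granulocyte markers that averaged 50 counts or more were all higher in replicate 1, with a median log2 ratio of 2.73. Of these, 4 were 2-fold or more higher, beside 2.14% of all genes. Csf3r was closer, at 45.3 and 34.4 TPM, a log2 ratio of 0.24. The shift was not particular to granulocyte genes. All 4 erythroid and megakaryocyte markers with such counts were 2-fold or more higher in replicate 1, with a median of 1.91. Of all genes with such counts 53.5% were lower in replicate 1. The part of granulocyte RNA in the difference in Cebpa was not tested.

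Cebpd (ENSMUSG00000071637.5, chr16:15887286-15891031, plus strand) went the other way. It was at 2.24 TPM in replicate 1 and 6.27 TPM in replicate 2, or 4.26 ± 2.85 TPM (SD, n = 2), from 175 and 721 counts. It was the lowest of the 9 genes in replicate 1 and the seventh in order in replicate 2, where it was just above Cebpg. The second quantification gave 1.90 and 4.91 TPM, below Cebpg in both libraries. Of its exonic bases 562 (15.0%) also lie in exons of Spidr on the opposite strand, which had 269 and 434 counts, and strand use is not given there either.

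Cebpg (ENSMUSG00000056216.9, chr7:35046422-35056573, minus strand) was at 7.46 and 6.15 TPM in replicates 1 and 2, or 6.81 ± 0.926 TPM (SD, n = 2), from 706 and 857 counts. It lies beside Cebpa on chromosome 7 but its libraries overlapped those of Cebpa and stood closer to each other. Its leading transcript Cebpg-202 held 92.6% and 92.5% of its TPM, or 78.5% and 66.6% by the second quantification, where the shorter Cebpg-201 took 5.26% and 20.0% and the intron-retaining Cebpg-203 took 16.3% and 13.4%.

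Among the other C/EBP genes Ddit3 was more abundant than these 4 together. Ddit3, which encodes the stress-response factor CHOP, was at 55.2 and 75.7 TPM and held 59.6% and 68.2% of the summed TPM of the C/EBP family of 6. Cebpb held 16.2% and 15.2%, Cebpa 13.4% and 5.37%, Cebpg 8.05% and 5.54%, and Cebpd 2.42% and 5.65%. Cebpe stood at 0.37 and 0.03 TPM. Cebpz, which shares the name but has no such leucine zipper, was at 5.51 and 5.60 TPM and was not counted in the family.

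**Figure D3:**
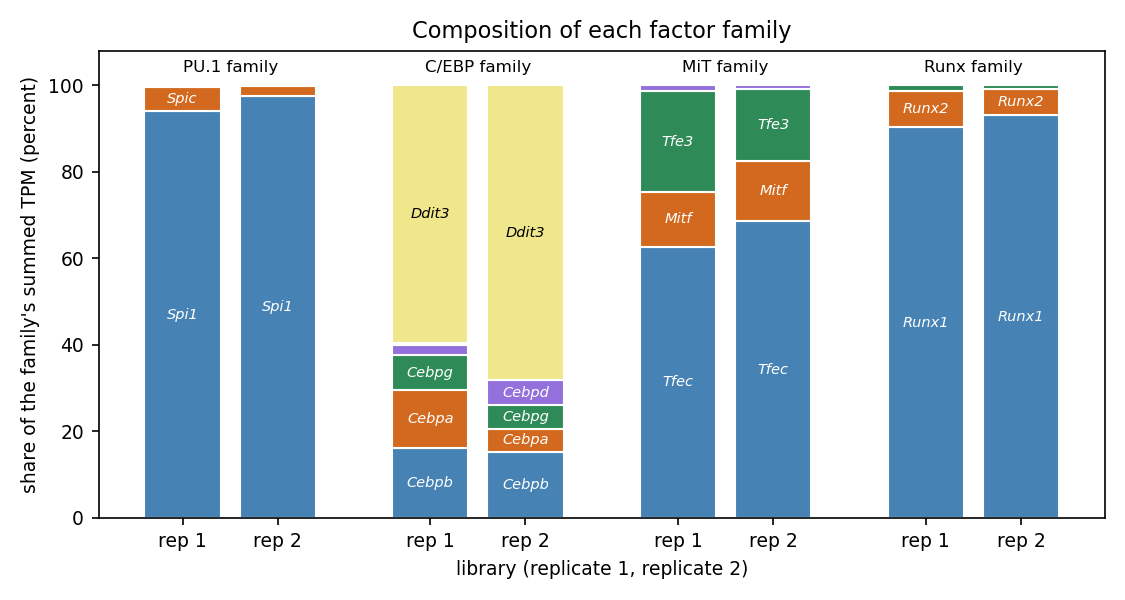
Share of each family's summed TPM, in percent, held by its genes in replicate 1 (left bar of each pair) and replicate 2 (right bar), with segments too thin for a name belonging to Spib, Spic, Cebpd, Cebpe, Tfeb and Runx3. Spi1 and Runx1 each fill 90.3% or more of their family's bar in both libraries, Tfec leads the MiT family, and the 4 C/EBP members stay below Ddit3.

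Tfec, a MiT gene with expression centred on macrophages, was the second most abundant of the 9. Tfec (ENSMUSG00000029553.10, chr6:16833373-16898441, minus strand) was at 195 TPM in replicate 1 and 245 TPM in replicate 2, or 220 ± 35.4 TPM (SD, n = 2), from 6594 and 12233 counts. It ranked 638 among expressed genes, in the top 6.20%. Its coding transcript Tfec-201 took 96.6% and 97.7% of its TPM, and 95.4% and 96.6% by the second quantification. Tfec held 62.7% and 68.6% of the TPM of the MiT family of 4 genes. Tfe3, a widely expressed lysosome regulator, held 23.2% and 16.6% at 72.4 and 59.4 TPM, and Tfeb was at 4.41 and 3.17 TPM.

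Mitf (ENSMUSG00000035158.15, chr6:97807052-98021349, plus strand) was at 39.4 TPM in replicate 1 and 49.8 TPM in replicate 2, or 44.6 ± 7.31 TPM (SD, n = 2), from 3758 and 6980 counts. It held 12.7% and 13.9% of the family's TPM and was below Tfe3 in both libraries. By the second quantification it was at 37.8 and 44.4 TPM, against 58.4 and 44.2 TPM for Tfe3, so in replicate 2 the order of these genes was not kept. Tfec and Mitf each lay lower in replicate 1, and Tfe3 and Tfeb each lay higher in it. The relation between the 3 most abundant genes of the family is shown in 60 coding bases, with the 38 that are identical in all 3 in capitals. This stretch covers the end of the basic region and the start of the helix-loop-helix that follows it. The bases come from the GENCODE M21 transcripts on mm10 and cross an exon junction, with outer ends at chr6:16840492-16844201 (minus) for Tfec, chr6:98006191-98010447 (plus) for Mitf and chrX:7770824-7771047 (plus) for Tfe3.
Tfec: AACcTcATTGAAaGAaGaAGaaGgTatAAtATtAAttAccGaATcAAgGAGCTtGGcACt
Mitf: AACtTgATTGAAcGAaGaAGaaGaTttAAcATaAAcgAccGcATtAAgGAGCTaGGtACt
Tfe3: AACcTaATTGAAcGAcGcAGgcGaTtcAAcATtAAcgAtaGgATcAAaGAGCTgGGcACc
Tfec and Mitf, both on chromosome 6, shared 47 of the 60 bases, while Tfe3 shared 42 with Tfec and 44 with Mitf. Over the whole leading transcripts of Tfec and Mitf no identical run was longer than 14 bases.

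Mitf is known for its many promoters, of which the most downstream serves melanocytes. Its transcripts from the most upstream start held 91.4% and 91.9% of its TPM in replicates 1 and 2 and 98.2% and 98.4% of its counts. Nearly all of it was Mitf-202, a 4881-base coding transcript with 89.6% and 89.3% of the TPM. Transcripts of the downstream start group, which begins 184734 bases further on, had 8.25% and 7.54% of the TPM but 1.65% and 1.41% of the counts. That share came mostly from Mitf-208, a 1074-base transcript with 7.44% and 7.54% of the TPM, whereas Mitf-201, the full transcript from that start, was listed at 0 counts in both libraries. By the second quantification Mitf-201 had 19.0 and 62.7 estimated counts, and the downstream group held 9.69% and 3.85% of the TPM. Of 6 melanocyte markers 4 had 0 counts in both libraries, the pigment enzyme genes Tyr and Tyrp1 among them. The other two, Pmel and Mlana, had 8 and 7 counts and 2 counts and 1 count in replicates 1 and 2.

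The bases around both starts are shown because the data give a share for each. The promoters are from RefSeq on GRCm38.p6, from 250 bases before the start to 50 after it, plus strand, at chr6:97806808-97807107 for the upstream start and chr6:97991533-97991832 for the downstream one. Capitals mark matches to short motifs searched on both strands: GAGGAA (the core of a PU box), TGTGGT (Runx), TTGCNNAA (C/EBP), TCANGTG (an E-box of MiT factors) and TATAAA. Of 32851 promoters of this length 28.3% held the PU box core, 16.8% the Runx motif, 10.8% the C/EBP motif, 14.3% the MiT E-box and 13.6% TATAAA, so a match is a description and not a binding site.
Mitf upstream: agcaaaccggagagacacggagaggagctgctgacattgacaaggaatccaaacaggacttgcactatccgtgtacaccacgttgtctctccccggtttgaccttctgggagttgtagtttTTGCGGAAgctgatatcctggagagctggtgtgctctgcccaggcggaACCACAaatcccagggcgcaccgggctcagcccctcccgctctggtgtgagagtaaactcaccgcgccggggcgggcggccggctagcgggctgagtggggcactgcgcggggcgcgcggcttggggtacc
Mitf downstream: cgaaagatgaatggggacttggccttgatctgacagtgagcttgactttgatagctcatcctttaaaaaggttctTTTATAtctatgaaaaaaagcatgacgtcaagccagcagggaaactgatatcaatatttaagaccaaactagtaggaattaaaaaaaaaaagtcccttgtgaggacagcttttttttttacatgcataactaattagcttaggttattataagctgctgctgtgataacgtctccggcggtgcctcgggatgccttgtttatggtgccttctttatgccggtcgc
Counting the start base as 0, the upstream promoter held a C/EBP match at -129 and a Runx match at -81. Its GC content was 62.7%, above the median promoter's 52.7%. The downstream promoter was at 40.0% and held only a TATAAA match, at -175, far from the usual place of a TATA box. Promoter entries were found for 6 of the 9 genes, 9 entries in all; Spi1, Maf and Cebpd had none. In the Tfec promoter, with 40.3% GC, a Runx match stood at -221 and a PU box core at 33.

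Mitf transcripts also differ by 18 bases at an alternative splice acceptor (chr6:98006123-98006140), which add residues just before the basic region. The 2 coding stretches, with 24 bases of flank on each side and the 18 bases in capitals, were read on the plus strand from Mitf-202, which has them, and from Mitf-207, which does not. Both run from chr6:98003981 to 98006164 across an intron.
Mitf-202: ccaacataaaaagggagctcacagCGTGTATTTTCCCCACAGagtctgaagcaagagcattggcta
Mitf-207: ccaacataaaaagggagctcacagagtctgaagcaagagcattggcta
Of the TPM in the 7 transcripts that span this place, 91.0% in replicate 1 and 90.2% in replicate 2 was in transcripts with the 18 bases. The second quantification gave 89.2% and 88.5%, so the form with them led in both libraries by both methods. Mitf-207 itself held 1.55% and 2.19% of the TPM in the first quantification and 3.40% and 9.49% in the second.

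Maf (ENSMUSG00000055435.6, chr8:115682942-115707794, minus strand), a large Maf factor that limits self-renewal of macrophages, came after Tfec in the order of levels. It was at 55.2 TPM in replicate 1 and 77.2 TPM in replicate 2, or 66.2 ± 15.5 TPM (SD, n = 2), from 6633 and 13442 counts. Among its relatives Mafa, a gene of pancreatic beta cells, had 0 and 3 counts, and Nrl, a gene of photoreceptors, had 0 in both libraries.

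Maf has 2 annotated transcripts. The unspliced Maf-202 of 6360 bases held 76.1% and 73.3% of the TPM, and the spliced Maf-201, which uses a distant last exon, 23.9% and 26.7%. Both quantifications gave this order, with Maf-202 at 79.0% and 76.6% in the second. An antisense transcript, Gm15655, overlaps 440 of the exonic bases of Maf (5.34%) and had 101 and 323 counts, or 26.7 and 57.6 TPM. Its log2 ratio between libraries, -1.25, had the sign of the ratio of Maf.

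Runx1 (ENSMUSG00000022952.17, chr16:92601466-92826149, minus strand), the factor that starts definitive blood formation, was at 21.96 TPM in replicate 1 and 28.59 TPM in replicate 2, or 25.3 ± 4.69 TPM (SD, n = 2), from 1973 and 3320 counts. It held 90.3% and 93.1% of the TPM of the Runx family, with Runx2, the bone factor, at 2.07 and 1.86 TPM and Runx3, known in T and NK cells, at 0.30 and 0.26 TPM. The gene has a distal and a proximal promoter whose annotated starts lie 128821 bases apart. Transcripts from the distal start held 77.6% and 76.3% of its TPM and 76.3% and 74.1% of its counts. Those from the proximal start held 22.4% and 23.7% of the TPM. The second quantification gave 75.2% and 70.4% to the distal start, so the distal start led in both libraries by these measures.

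The promoters of both starts, again from RefSeq on GRCm38.p6 and on the minus strand, are at chr16:92826025-92826324 (distal) and chr16:92697280-92697579 (proximal), with the same motifs in capitals.
Runx1 distal: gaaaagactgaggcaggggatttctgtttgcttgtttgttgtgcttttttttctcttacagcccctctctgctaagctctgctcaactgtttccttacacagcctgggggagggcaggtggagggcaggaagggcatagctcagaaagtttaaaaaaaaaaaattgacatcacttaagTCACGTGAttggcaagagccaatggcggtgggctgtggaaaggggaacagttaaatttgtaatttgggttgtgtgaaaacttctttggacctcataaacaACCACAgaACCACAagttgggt
Runx1 proximal: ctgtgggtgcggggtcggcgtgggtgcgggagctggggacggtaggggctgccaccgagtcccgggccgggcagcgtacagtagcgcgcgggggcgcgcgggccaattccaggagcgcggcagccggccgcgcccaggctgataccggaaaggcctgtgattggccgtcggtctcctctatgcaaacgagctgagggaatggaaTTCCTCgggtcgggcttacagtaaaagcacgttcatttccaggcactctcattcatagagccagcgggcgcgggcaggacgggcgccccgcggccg
They differed in composition: GC content was 45.0% in the distal and 69.0% in the proximal promoter, and the ratio of observed to expected CpG was 0.137 and 1.01. The distal one held 2 Runx matches, at 28 and 36 after its start, and 1 palindromic MiT E-box that matches on both strands from -72. The proximal one held a PU box core at -46.

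Within each start the split of Runx1 depends on how short transcripts are weighed. Runx1-201, the 5861-base coding transcript of the distal start, had 52.8% and 44.8% of the TPM and 73.9% and 71.5% of the counts. Runx1-204, a 336-base fragment of the distal start annotated with an incomplete end, had 21.4% and 28.5% of the TPM on 8.66 and 22.85 estimated counts, with an effective length of 81.7 and 84.5 bases. Its TPM thus rests on few reads. Runx1-202 of the proximal start held 19.7% and 17.7% of the TPM and 22.1% and 22.6% of the counts. A 192-base cassette exon (chr16:92644154-92644345) was in 73.4% and 73.9% of the TPM of the 3 transcripts that span it, and in 67.9% and 70.9% by the second quantification.

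**Figure D4:**
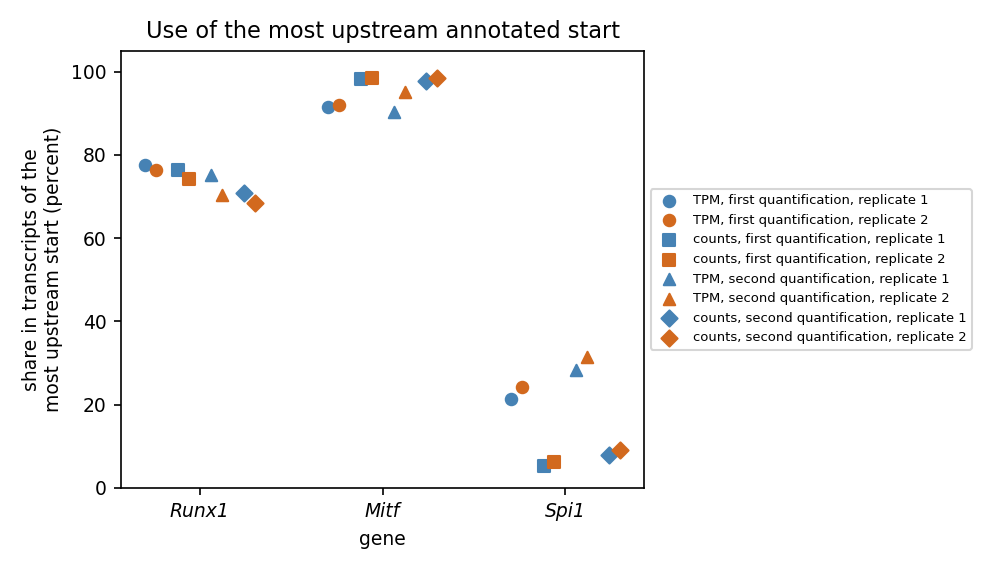
Share, in percent, of transcripts that begin at the most upstream annotated start of Runx1, Mitf and Spi1, by 4 measures (TPM and counts of each quantification), with replicate 1 in blue and replicate 2 in orange. The share lies between 68.5% and 77.6% for Runx1 and between 90.3% and 98.4% for Mitf, whereas for Spi1 it is 21.3% to 31.3% in TPM but 5.19% to 9.12% in counts.

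Replicates 1 and 2 were then compared gene by gene. With 1 library on each side no test was possible, and no p-value is given. Ratios are replicate 1 over replicate 2 in TMM-normalised CPM, and intervals are exact Clopper-Pearson intervals at 95% that cover counting error only, since reads are not independent molecules. Of the 9 genes 1, Cebpd, was 2-fold or more apart, beside 3.99% of all 10445 genes that averaged 50 counts or more. Its log2 ratio was -1.61 (interval -1.86 to -1.37), or 3.06-fold lower in replicate 1. Genes that far lower in replicate 1 were 1.85% of all, and genes that far higher were 2.14%.

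Cebpa had the largest ratio in the other direction, at 0.90 (interval 0.71 to 1.08), or 1.86-fold higher in replicate 1. On the log2(TPM + 0.1) scale the value was 1.04. Cebpg, at 0.15 (0.0036 to 0.29), was the only other gene of the 9 that was higher in replicate 1. The other members were all lower in replicate 1, Cebpd as above, with Maf at -0.59, Mitf and Tfec both at -0.46, Runx1 at -0.32, Cebpb at -0.30 and Spi1 at -0.09. Thus 7 of the 9 were lower in replicate 1, beside 53.5% of all genes. The median over the 9 was -0.32, beside -0.03 over all genes. In all, 6 of the 9 lay within 1.5-fold, beside 85.4% of all genes.

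The ratios differ with the scale. All genes had a median of 0.09 on the log2(TPM + 1) scale, 0.11 above that in TMM-normalised CPM. Spi1 was at 0.03 on that scale and so changed sign, and the other 8 genes kept theirs. Relative to the median of all genes, Spi1 was at -0.06 by both scales. Cebpd was at -1.17 on the log2(TPM + 1) scale, which understates ratios of low genes, and stayed past 2-fold. The second quantification gave -1.62 for Cebpd and 0.86 for Cebpa, close to the first.

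**Figure D5:**
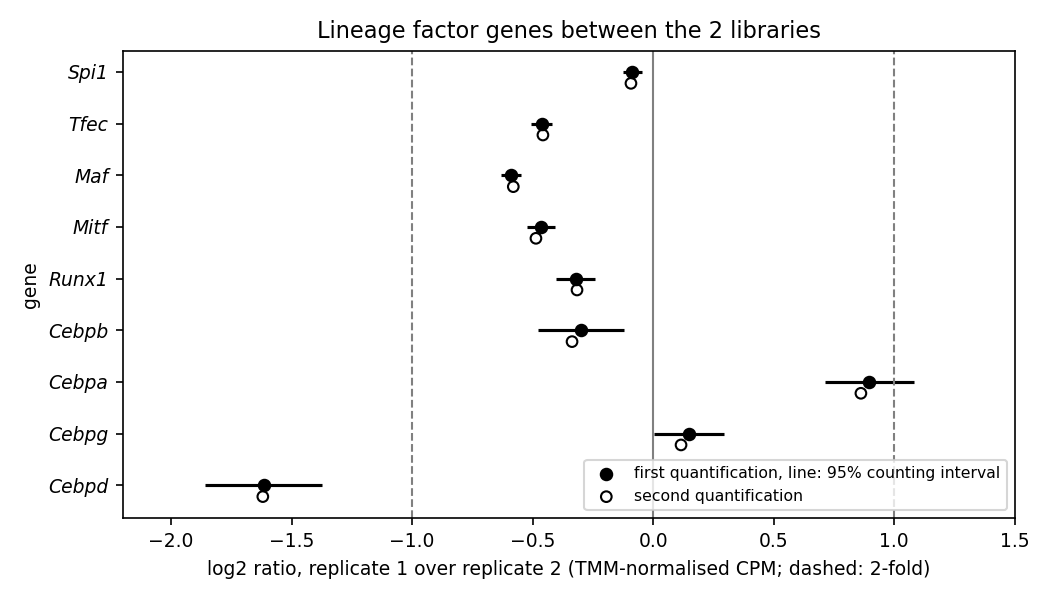
Log2 ratio of replicate 1 over replicate 2 for each factor gene in TMM-normalised CPM (filled points, with 95% counting intervals) and by the second quantification (open points), with dashed lines at 2-fold. Cebpd, at -1.61, is the only gene past a dashed line, and Cebpa, at 0.90, lies closest to the other one.

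Partners of these factors were nearly all present: 14 of 16 listed partners and corepressors reached 1 TPM in each library. Of all 55536 mouse genes 10285 did so, which is the background for the lists below as well. Irf8, which binds DNA with PU.1, was at 150 and 244 TPM in replicates 1 and 2. Id2, which holds helix-loop-helix proteins off DNA, was at 360 and 499 TPM. The small Maf genes Maff and Mafk, whose proteins pair with larger zipper factors, were at 93.5 and 57.5 TPM and at 45.4 and 57.9 TPM. Jun, a zipper factor that joins Maf and C/EBP proteins, was furthest apart of this list, at 19.0 and 33.6 TPM. Of the 13 partners that averaged 50 counts or more 0 were 2-fold apart, beside 3.99% of all genes, a share that leaves little to read from so few genes.

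Of 26 other myeloid and progenitor factors 17 reached that level. The zinc finger gene Zeb2 led at 161 and 144 TPM, followed by Lmo2 at 72.0 and 115.9 TPM, Ikzf1, which encodes Ikaros, at 55.3 and 79.3 TPM, and Ets2 at 50.04 and 50.87 TPM. Nr1h3, the oxysterol receptor LXR alpha, was at 69.7 and 26.1 TPM, a log2 ratio of 1.30. Of the 19 that averaged 50 counts or more, 15 were lower in replicate 1, beside 53.5% of all genes, and 4 were higher. Their median log2 ratio was -0.46, beside -0.03 over all genes.

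Genes known as targets of the factors were listed by factor, and their levels are given without any claim that the factor acts on them here. All 15 listed Spi1 targets reached it, led by Lyz2, the lysozyme gene, at 13518 and 19283 TPM. Their median log2 ratio was -0.35. Of 16 C/EBP targets 9 passed that level, with Il12b, a subunit of interleukin 12, at 276 and 470 TPM, the acute-phase gene Saa3 at 172 and 126 TPM, Ptgs2, the inducible cyclooxygenase, at 88.0 and 44.1 TPM, and Il6 at 42.9 and 36.4 TPM. Of the 10 C/EBP targets that averaged 50 counts or more 3 were 2-fold or more higher in replicate 1, beside 2.14% of all genes, and none was 2-fold lower, beside 1.85%. Their median log2 ratio was 0.64. Ngp, at a log2 ratio of 4.27, is also in the granulocyte list, whose median was 2.73, and the part of granulocyte RNA in this count was not tested.

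Among 11 targets of large Maf factors 10 reached 1 TPM in each library, with the complement genes C1qb at 3177 and 2757 TPM, C1qc at 1689 and 1814 TPM and C1qa at 246 and 263 TPM. Of 17 MiT targets 10 did, led by Gpnmb, a lysosomal glycoprotein gene, at 12133 and 12807 TPM, Lamp1, a lysosome membrane gene, at 2286 and 2767 TPM, and Sqstm1, an autophagy receptor, at 2070 and 1742 TPM. The osteoclast genes Acp5 and Atp6v0d2 in that list were at 146 and 67.4 TPM and at 246 and 146 TPM, both higher in replicate 1. Of the 4 osteoclast markers that averaged 50 counts or more 3 were higher in replicate 1. Ctsk, the cathepsin K gene, was lower at 4.73 and 5.59 TPM, as were 53.5% of all genes. Of 9 Runx1 targets 6 reached 1 TPM in each library. Among them were Csf1r, the receptor for macrophage growth factor, at 628 and 728 TPM, and the growth factor gene Csf2 at 22.6 and 1.52 TPM. The medians of the Maf, MiT and Runx1 lists were -0.07, -0.06 and -0.08, near the -0.03 of all genes. The Runx1 list holds Spi1, itself 1 of the 9 genes described here, and its ratio of -0.09 entered that median.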

How the data were processed

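RNA sequencing of 2 libraries of 1 group was analysed, grouped by the replicate numbers in the labels. Per the file headers, the authors deposited a gene table and a transcript table with expected counts, TPM and each transcript's percent of its gene's TPM, in the column format of RSEM (the first quantification). A further deposited transcript table gives estimated counts and TPM in kallisto's format (the second quantification), and was summed by gene. The deposited descriptions give assembly mm10 and annotation M21; program versions and strand use are not given in the sources used here.

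Expected counts were rounded to whole numbers. Entries that are no mouse gene (26345 of 81881, with 0.141% and 0.134% of counts) were left out of library sizes. Ratios used TMM factors from edgeR 4.0.16 (R 4.3.3) for genes that averaged 50 counts or more, and the spread came from edgeR's common dispersion with an intercept alone, for genes that had at least 10 counts in each library. The ratio step was checked on simulated counts. Because TPM divides by effective length, transcript shares were also taken from counts. Annotated starts less than 1500 bases apart were joined into 1 group. The remaining steps ran in Python 3.11.15 with pandas 2.3.3, numpy 2.4.6, scipy 1.17.1 and matplotlib 3.10.9.

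The 9 genes and the 17 other lists, with 174 genes, were chosen with earlier results of these data known. The naming rule took from each list the 4 genes of highest mean TPM and the gene whose ratio was largest in size, plus all close relatives, transcripts at 5% or more and overlapping genes; not all of them are printed, and 1 relative and 1 sequence are not reported here. Alternatives tried were size factors from DESeq2 1.42.0, lower and higher minimums, TPM on 2 log scales, posterior mean TPM, TPM without mitochondrial or rRNA genes, the second quantification and each replicate left out.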

Additional observations from a re-analysis of the deposited data

How the results depend on the processing

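The count of genes present depended little on the setting: in both libraries all 9 passed 0.5 TPM, all 9 passed 1 TPM by the second quantification, and 8 passed 5 TPM. The background of 417 genes 2-fold apart did move, to 1044 for genes averaging 10 counts or more, to 189 with 200 or more and to 230 on the log2(TPM + 1) scale. The common dispersion was 0.0461, and 0.0367 where each library had at least 50 counts. Levels moved by more than 1 SD for Spi1 in 4 alternatives (269 to 356 TPM) and for Cebpb in 2 (13.3 and 17.5 TPM). The share of the leading transcript moved for 7 of 9 genes in the second quantification, and for 5 when taken from counts. Ratios moved for 5 genes on the log2(TPM + 1) scale, for 4 on the log2(TPM + 0.1) scale and for none with DESeq2 size factors. Of 16 shares of start groups and exon variants 13 moved by more than 1 SD in the second quantification. Added after the data were seen were shares of counts, and leaving out transcripts with an incomplete end, which put Spi1-201 at 90.7% and Runx1-201 at 64.9%. No paired analysis was possible because the labels give 1 group. Depth limits Cebpd most, at 175 counts in replicate 1, and Runx1-204, at 8.66.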
